A study of Malus domestica with 34 samples.

Results

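Genes whose level in every apple leaf library of the following year was well above that in all first-year leaf libraries were sought. In this series 2 of 52311 gene identifiers met the rule: MD10G1281800 and MD10G1079400. A gene was kept if its mean over the 6 next-year leaf libraries was at least 5 CPM (the count scaled to a common library total), if its lowest next-year value was at least 3 times its highest value in the 12 first-year leaf libraries, and if log2(CPM + 1) differed by less than 1 between droughted and well-watered leaves at the first sampling. The difference between the years in leaf, and the first-sampling difference between regimes, are therefore the values the genes were chosen by, and are given as description only. The label of genes gained after winter fits what the rule measured, a difference between next-year and first-year leaves. Winter, year, plant age and season changed together and cannot be told apart.

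All plants were apple seedlings of GDDH18, a doubled haploid of 'Golden Delicious' with identical chromosome copies, and the regimes began at an age of 12 weeks. Well-watered plants (64 in the study) were kept near 80% soil water content. Plants of the drought regime (61) went through 3 cycles, each of 3 weeks at 45% and 3 weeks of rewatering. Leaf and root were sampled after the first drought (1 cycle), after the third (3 cycles), and in the next year after 1 winter, before any new stress, always from both regimes. Each of the 12 groups held 3 libraries from 3 sowing blocks, except the next-year root groups with 2 each. The sources used here give neither the age at each sampling nor how many plants made up a library.

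Apple is deciduous: it drops its leaves before winter and grows the next year's leaves from buds that overwinter in dormancy. Next-year leaves are therefore new organs and not older versions of the leaves sampled before, whereas roots persist through the winter. The deposited table pairs no identifier with a name, and a search of RefSeq's gene table (assembly GDT2T_hap1) found 0 of them, so no function is given for either gene. RNA was taken from whole tissue pieces, so fewer cells of a type and less RNA per cell cannot be told apart.

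MD10G1281800 was a leaf transcript with a low level in the first year and a high level in the next. In well-watered next-year leaves it stood at 63.0, 81.0 and 74.4 CPM in blocks 1, 2 and 3, and in next-year leaves of the drought regime at 64.0, 64.1 and 95.6 CPM. The next-year libraries thus lay within 1.52-fold of each other, with a coefficient of variation of 17.5% over the 6. In the 12 first-year leaf libraries the lowest value was 0.0243 CPM, the median 2.58 CPM and the highest 8.88 CPM, a coefficient of variation of 95.3%. Those libraries pool both first-year samplings and go down to 1 count, so the coefficients of the years cover unlike sets. Pooled over libraries, 21465 next-year counts against 1291 first-year counts gave a 25.9-fold difference (95% interval 24.5 to 27.5, counting error only), the size of the change that the rule selected.

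**Figure D1:**
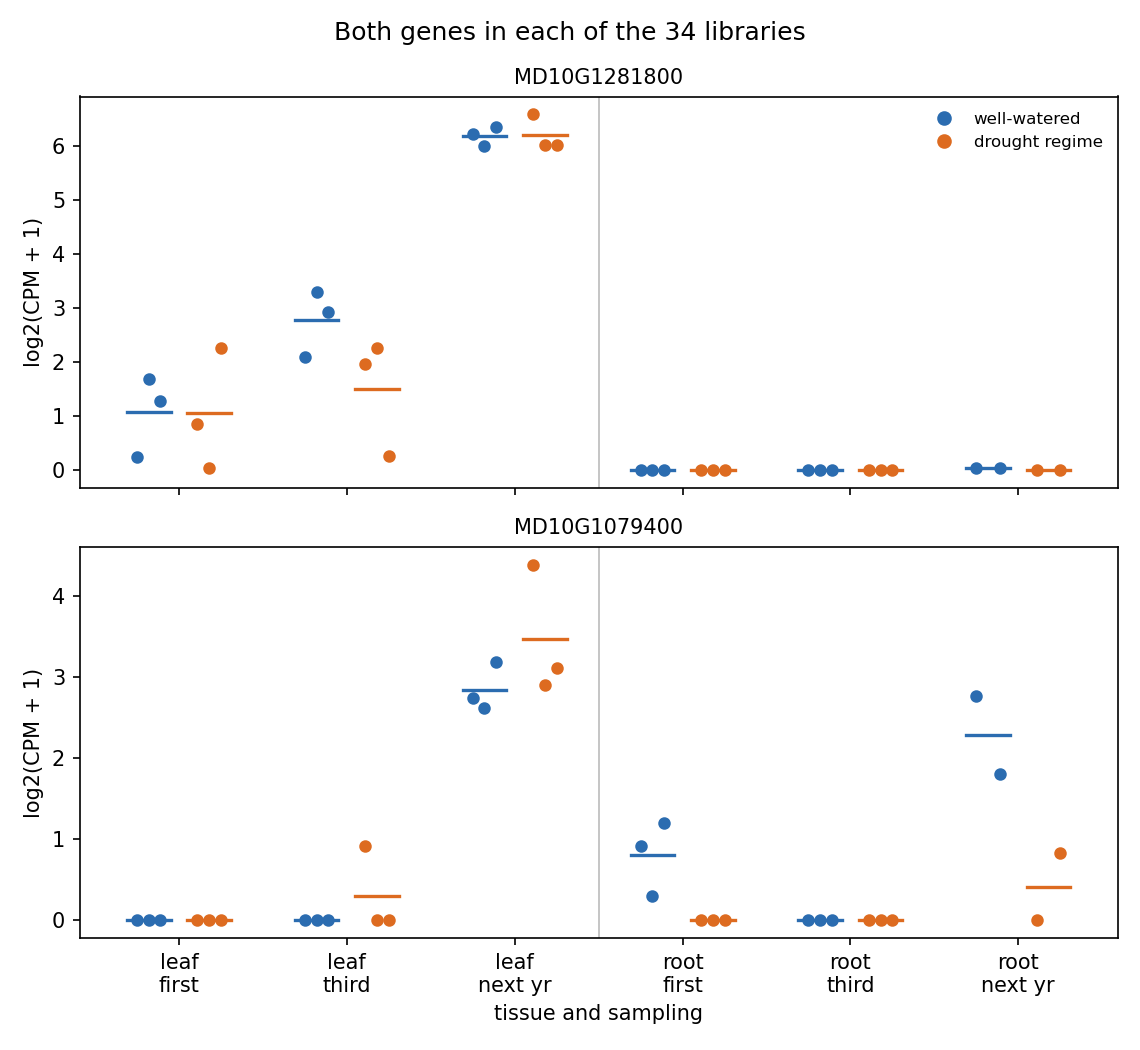
Level of MD10G1281800 (top) and MD10G1079400 (bottom) as log2(CPM + 1) in each of the 34 libraries, by tissue and sampling; blue points are well-watered libraries, orange points the drought regime, and bars the group means of the log2 values. All 6 next-year leaf libraries lie above all 12 first-year leaf libraries for both genes, as the rule required, while root libraries lie at or near 0 for MD10G1281800 and above 0 in 6 of 16 for MD10G1079400.

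Within the first year, MD10G1281800 was at 0.185, 2.25 and 1.43 CPM in well-watered leaves of blocks 1, 2 and 3 at the first sampling and at 3.28, 8.88 and 6.64 CPM at the third. The group means were 1.29 ± 1.04 and 6.27 ± 2.82 CPM (SD over 3 libraries). The difference of 2.14 on the log2 scale (SE 0.96) did not pass edgeR's quasi-likelihood test after Benjamini-Hochberg adjustment over all genes (adjusted p = 0.138), in a comparison that called 15.1% of 32307 tested genes, 8.11% as higher and 6.98% as lower. That share was not stable, since the 4876 calls became 5 when only these 2 groups were fitted and 894 when the first-sampling library of well-watered block 1 was left out.

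In droughted leaves the samplings overlapped. MD10G1281800 was at 0.821, 0.0243 and 3.83 CPM at the first sampling, the middle value being a single count, and at 2.92, 3.82 and 0.192 CPM at the third. The log2 change was 0.34 (SE 0.95, edgeR adjusted p = 0.843), where 16.6% of tested genes were called, 8.57% as higher and 7.99% as lower. The direction turned when block 2 of either sampling was left out, at -0.22 without the first-sampling and -0.21 without the third-sampling library.

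The rule did not use the difference between regimes at the third sampling or in the next year. At the third sampling the droughted leaves were below the well-watered leaves of the same block in all 3 blocks, although 1 droughted library (3.82 CPM) exceeded the lowest well-watered one. The log2 change was -1.59 (SE 0.93, edgeR adjusted p = 1). In the next year the regimes stood at 74.6 ± 18.2 CPM after drought and 72.8 ± 9.10 CPM without it (SD, n = 3 each), and differed by 0.06 on the log2 scale (SE 0.86, edgeR adjusted p = 1). The error is wide because all leaf groups shared an estimate of the spread, and it was 0.22 around a change of 0.05 when the 6 next-year libraries were fitted alone (adjusted p = 1.00).

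Over the whole leaf table edgeR called 0% of genes between the regimes at either sampling (0 of 32307), with 727 genes at an unadjusted p under 0.05 at the third sampling and 356 in the next year, and DESeq2 called 0 and 1.

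In root MD10G1281800 was practically absent. Of the 16 root libraries 14 held no count, and the well-watered next-year libraries of blocks 2 and 3 held 2 and 1. A count of 0 allows up to 0.0498 to 0.1 CPM in the well-watered third-sampling roots, the root group with the widest spread of depth (3 counts of the library total). First-year leaves were at least 469-fold above first-year roots (1291 counts against a floor of 3 counts over the 12 libraries). Next-year leaves were 4599-fold above next-year roots (21465 against 3 counts, 95% interval 1574 to 22304, counting error only). The low-count filter removed the gene from the root fit. Ordered by level, the 2 next-year leaf groups overlapped each other and stood apart from the rest, the 4 first-year leaf groups overlapped their neighbours in the order, and the root groups came last.

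MD10G1079400 was undetected in most libraries. It had a count in 13 of the 34, and each of those held at least 9 counts. In next-year leaves it stood at 5.11, 8.10 and 5.67 CPM in well-watered blocks 1, 2 and 3 and at 7.65, 6.45 and 19.9 CPM after drought. Of the 12 first-year leaf libraries 11 held no count, and droughted block 1 of the third sampling held 32 (0.882 CPM). Pooled, 2482 next-year counts against 32 first-year counts gave a 121-fold difference (95% interval 85.5 to 177, counting error only), again the change that the rule selected.

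The next-year regimes overlapped for this gene, at 11.3 ± 7.44 CPM after drought and 6.29 ± 1.59 CPM without (SD, n = 3 each), and differed by 0.89 on the log2 scale (SE 0.92, edgeR adjusted p = 1). The drought mean was set by block 3. Without that library the log2 change was 0.10. At the third sampling the contrast rested on the 32 counts of 1 droughted library (edgeR adjusted p = 1 against well-watered leaves, and adjusted p = 0.135 against droughted leaves of the first sampling). Without it both groups were at 0.

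Roots were not used to choose the genes, and MD10G1079400 was detected there too. Next-year roots held 5.80 and 2.48 CPM in well-watered blocks 2 and 3, and 0 and 0.780 CPM in blocks 1 and 3 of the drought regime. First-year roots held 0.896, 0.232 and 1.29 CPM in well-watered blocks 1, 2 and 3 at the first sampling, and no count in the other 9 libraries. Next-year and first-year roots thus overlapped, since a next-year library had no count.

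The pooled next-year level was 12.6-fold the first-year level (478 against 100 counts, 95% interval 10.2 to 15.8, counting error only). Over all 16 root libraries edgeR placed the gene higher in the next year (adjusted p = 0.0216), a comparison that called 4.53% of 33541 tested genes, 3.06% as higher. With the sowing block as a term the adjusted p was 0.0712. The call was also lost without well-watered next-year block 2 (adjusted p = 0.0760), well-watered next-year block 3 (0.0572) or drought next-year block 3 (1.00), the last leaving that group at 0. The root gain of MD10G1079400 therefore depended on single libraries and on the treatment of the block.

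Within root the well-watered libraries carried most counts of MD10G1079400. At the first sampling all 3 well-watered roots had counts and none of the droughted roots did, at least 39.0-fold lower (100 counts against a floor of 3 counts over the group). That difference did not pass edgeR's test (adjusted p = 1, unadjusted p = 0.00571). In the next year well-watered roots held 438 counts, 337 of them in block 2, and roots of the drought regime 40. The ratio was 10.1 (95% interval 7.33 to 14.4 for counting error, edgeR adjusted p = 1). The regimes share only block 3 there, with 2.48 and 0.780 CPM. Well-watered roots at the third sampling had none, at least 33.7-fold below the first (edgeR adjusted p = 0.862). In both regimes the third-sampling roots had no count, so no fold is given there.

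For these 4 root comparisons edgeR called 0% of the 33541 tested genes (0 each). Without adjustment, p was under 0.05 for 340 genes at the first sampling, 936 at the third and 739 in the next year between regimes, and for 1872 between the third and first samplings of well-watered roots. DESeq2 called 0, 1, 2 and 24. In the order of levels of MD10G1079400 the next-year leaf groups came first, well-watered next-year roots overlapped the well-watered leaves of that year (but not those of the drought regime), and well-watered first-sampling roots overlapped next-year roots of the drought regime. All lower groups overlapped at 0.

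Both identifiers begin with MD10. In identifiers of this form the digits after MD number the chromosome and the remainder runs along it. The annotation itself was not used here, so positions are given as places in the order of the deposited table. The window of 10 places on either side was chosen after values around the genes had been seen.

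The identifiers around MD10G1281800 moved both ways between the years in leaf. Of the 20 identifiers within 10 places, 17 could be tested between next-year and first-year leaves, and 6 rose and 4 fell (edgeR, adjusted p under 0.05, with 43.4% of 32307 genes called, 21.3% higher and 22.2% lower). The count is near that background. The 4 identifiers with a fitted change of more than 4-fold lay from 2 places before to 4 places after the gene. Over all 32307 tested genes 4.53% changed by that much in either direction. The 4-fold limit was set after these neighbours had been singled out by their values, so the share beside it is no test of grouping. The next largest change in the window was a log2 of 1.67, 7 places after the gene.

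MD10G1281600, 2 places before, fell from a first-year range of 10.6 to 35.7 CPM (median 20.0, n = 12) to 2.02 to 3.40 CPM in the next year (median 3.10, n = 6). The log2 change was -2.79 (SE 0.26, edgeR adjusted p = 4.79e-06). MD10G1281700, the identifier directly before, fell from 3.66 to 18.3 CPM (median 7.74) to 0.892 to 2.59 CPM (median 1.53), its log2 change being -2.42 (SE 0.37, edgeR adjusted p = 0.000157). Neither pair of ranges overlapped. Next-year leaves were below every first-year leaf for 5.96% of the 26555 genes with a mean of at least 1 CPM in leaf, and above for 2.72%.

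The identifier 3 places after MD10G1281800 also fell, from a median of 1.35 to 0.257 CPM (log2 change -2.31, SE 0.36, edgeR adjusted p = 0.000186), with ranges that touched. The identifier 4 places after rose like the gene itself, from a median of 2.89 CPM (0.713 to 7.28) to 23.5 CPM (19.8 to 29.5), higher by 3.25 on the log2 scale (SE 0.31, edgeR adjusted p = 4.79e-06). It was the first gene outside the rule, its lowest next-year value being 2.72 times its highest first-year value, against 7.09 and 5.80 times for the 2 genes inside. A limit of 2 times would have admitted it. All 4 neighbours kept their direction and their call under the 4 other settings run for each, the block term included, and when each of the 18 leaf libraries was left out.

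**Figure D2:**
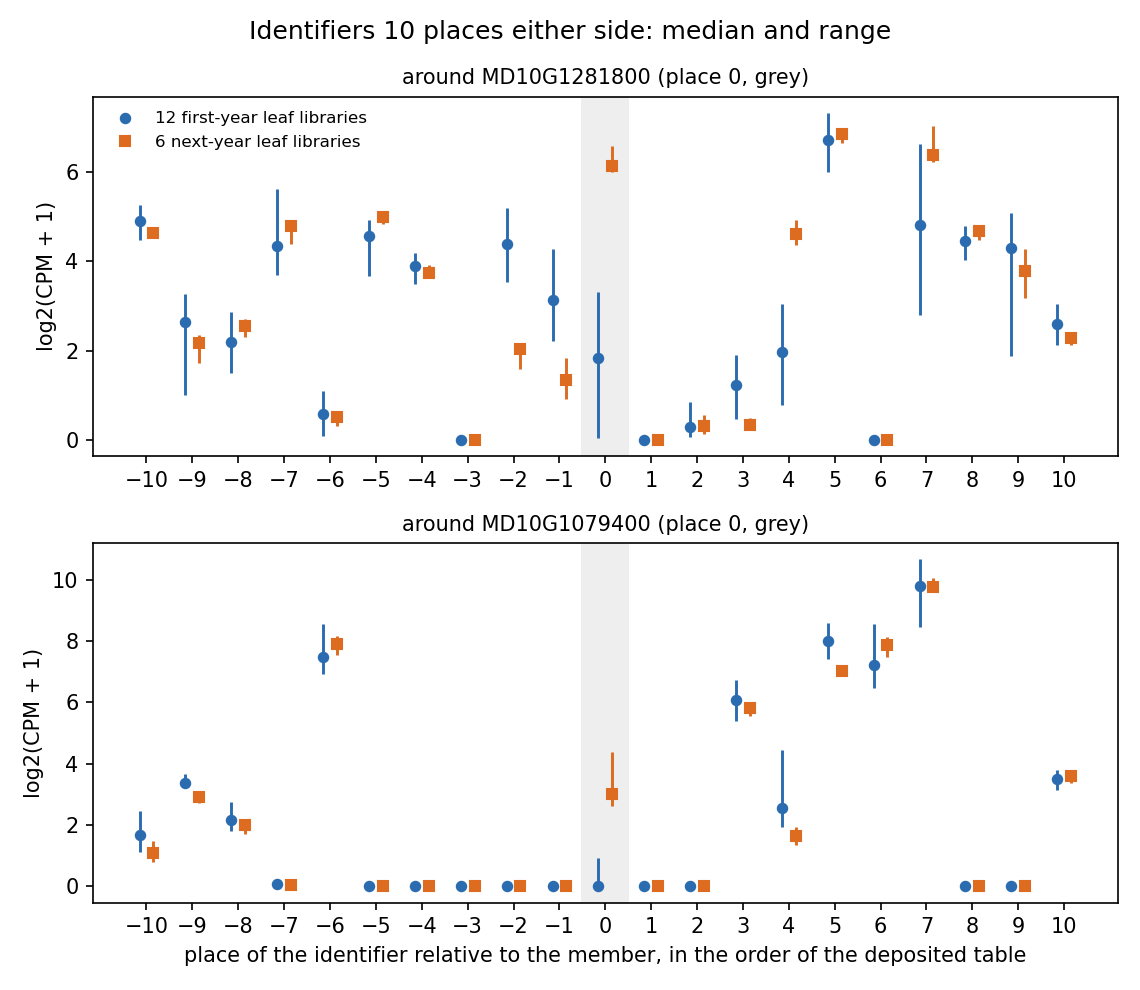
Identifiers within 10 places of MD10G1281800 (top) and MD10G1079400 (bottom), by place in the deposited table; points are the median and lines the range of log2(CPM + 1) over the 12 first-year (blue) and 6 next-year (orange) leaf libraries. Around MD10G1281800 the identifiers at places -2, -1 and 3 are lower and that at place 4 is higher in the next year, while places -5 to -1 and 1 to 2 around MD10G1079400 hold next to no counts. CPM is not corrected for gene length, so levels are compared between years and not between genes.

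These 4 neighbours were higher in leaf than in root in the first year. Mean first-year root levels of MD10G1281600 and MD10G1281700 were 0.387 and 0.0743 CPM, against first-year leaf means of 21.0 and 9.43 CPM, and the identifier 4 places after had 0.0272 CPM in first-year roots. None of the 4 was called between the regimes in next-year leaves (log2 changes -0.40 to 0.48, edgeR adjusted p = 1 for each). That comparison called 0 of 32307 genes, so the lack of a call marks no likeness to MD10G1281800.

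Among 32400 other identifiers that reached 1 CPM in any library, the one 4 places after had the highest Pearson's r with MD10G1281800 over the 34 libraries (0.98 of log2(CPM + 1)). Its Spearman's rho was 0.91, and the profiles ranked next by r had higher rho, at 0.93 and 0.96. These values are dominated by tissue and year, and the measure was chosen after values had been seen. Within the 12 first-year leaf libraries, where year and tissue are constant, r was 0.90 and rho 0.88 between MD10G1281800 and that identifier. Leaving out the 2 libraries farthest from the median gave r = 0.93, and values centred on their group means gave r = 0.87. Both were highest in well-watered block 2 of the third sampling, and both were among their lowest in droughted block 3 of the third sampling and well-watered block 1 of the first. They parted in droughted block 2 of the first sampling. That library was the lowest for MD10G1281800 (0.0243 CPM) but held 1.89 CPM of the other identifier, whose lowest value was 0.713 CPM. The rule used these libraries and the identifier was singled out by its likeness, so the correlations are a description and carry no p.

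For the identifiers 2 before, 1 before and 3 after, which fell between the years, r with MD10G1281800 within the first year was 0.16, 0.30 and 0.21, and rho was 0.04, 0.24 and 0.08. Centred on the group means r was 0.42, 0.51 and 0.59, and without the 2 farthest libraries 0.40, 0.55 and 0.44. All these values were positive, but those over all 12 libraries before centring were low, and no values of other genes are given beside them. Nothing is read from their sign.

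**Figure D3:**
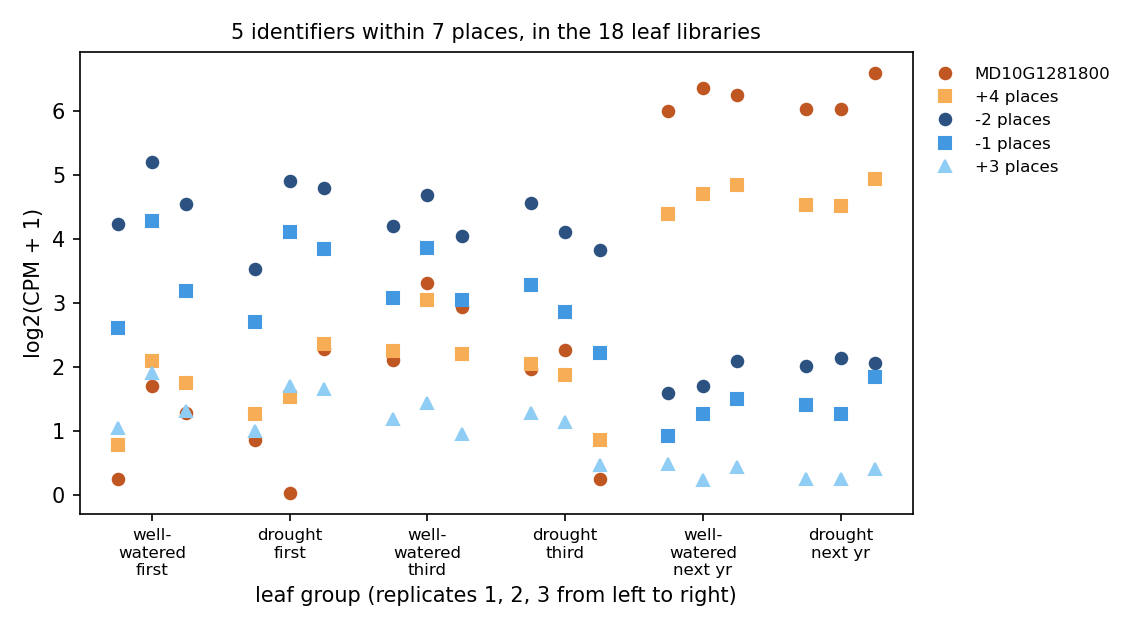
MD10G1281800 (dark orange circles) and the identifiers 4 places after (light orange squares), 2 places before (dark blue circles), 1 place before (blue squares) and 3 places after (light blue triangles) in the 18 leaf libraries, as log2(CPM + 1) by group. In each of the 6 next-year libraries both orange series lie above and the blue series below nearly all their first-year values.

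The estimated counts divide reads between similar transcripts, so if any of these neighbours are near-identical copies their separate levels are uncertain. Sequence similarity was not tested.

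Around MD10G1079400, 8 of the 20 identifiers within 10 places had no count in any library, among them 6 of the nearest 10, against 16.6% of the 52311 identifiers of the table. Of the 10 that could be tested between the years, 1 rose and 4 fell, and the largest change was a log2 of -1.30 (SE 0.30, edgeR adjusted p = 0.00307), 4 places after the gene. The 3 profiles most like that of MD10G1079400 over the 34 libraries had Pearson's r of 0.90, 0.84 and 0.78, and none lay within 10 places.

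Gains that met the rule were rarer than losses. Among all 32307 tested genes edgeR called 21.3% higher and 22.2% lower between the leaf years, which counts changes of any size. The rule counts separated libraries, and by that measure losses were the more frequent over the whole table too. Of 26555 genes with a mean of at least 1 CPM in leaf, next-year leaves were above every first-year leaf for 2.72% and below for 5.96%. With the years exchanged, the same rule kept 27 genes whose lowest first-year leaf value was at least 3 times the highest next-year value, MD10G1281600 among them, against the 2 gained. At a limit of 1.5 times there were 22 gained and 147 lost, and with no fold beyond separation 632 and 1214.

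**Figure D4:**
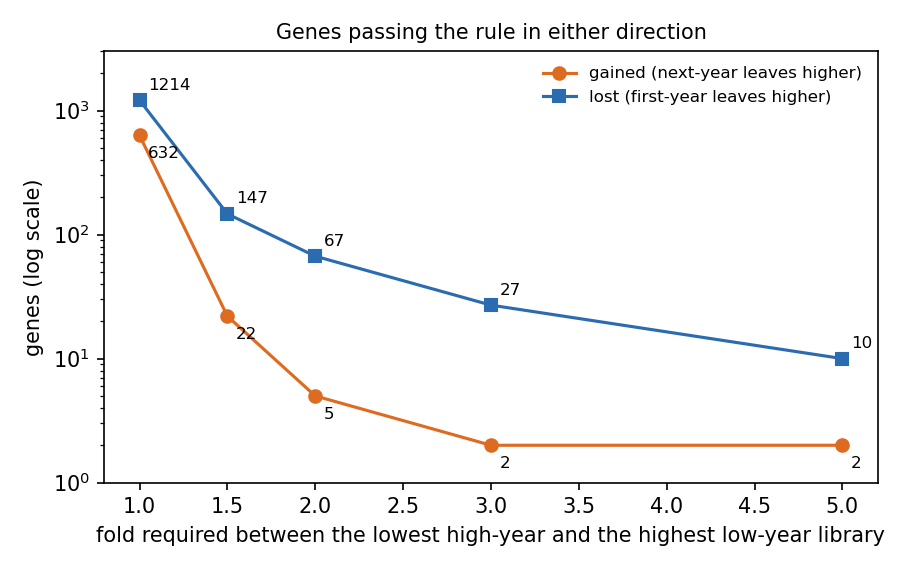
Number of genes (log scale) that pass the rule as gained (orange) or, with the years exchanged, as lost (blue), against the fold required between the lowest library of the higher year and the highest of the lower year. The lost genes outnumber the gained ones at every fold drawn, 27 to 2 at the limit of 3 used here.

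The wider and exchanged lists were read in roots, which chose neither. Of the 22 genes gained at 1.5 times, 15 could be tested in root, of which 5 rose and 1 fell in next-year roots (median log2 change 0.60, against -0.03 over all tested genes, of which 3.06% rose and 1.47% fell). MD10G1079400 was 1 of the 5. Over the other settings 0 to 8 rose and 0 to 2 fell, with 0 of either in well-watered roots alone and 8 and 2 by DESeq2. Of the 27 lost genes 25 could be tested, of which 9 fell and 0 rose (edgeR, adjusted p under 0.05), with a median log2 change of -1.39. The number that fell was 5 to 12 over the other settings, lowest in either regime alone and highest by DESeq2, and 6 to 10 when a root library was left out, and 0 rose in each.

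The libraries fell as labelled by tissue, and the leaf libraries by year. Regime, sampling within the first year, block and the year of root libraries were not checked in this way. The most similar library, by Spearman correlation over all genes, was of the same tissue for all 34 libraries, of the next year for all 6 next-year leaf libraries and of the first year for all 12 first-year leaf libraries. Leaf totals ran from 25974815 to 68239819 counts and root totals from 29963017 to 60194325. Well-watered leaf block 2 of the third sampling had a TMM factor of 0.881, against 1.14 to 1.21 in the other third-sampling leaves, and held the highest first-year value of MD10G1281800. Without it the rule kept 3 genes, adding the identifier 4 places on.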

How the data were processed

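The authors deposited estimated counts per gene, already whole numbers, for 52311 identifiers in 34 libraries. Per the labels' protocols, the kit for mRNA kept strand and reads were 100 bp pairs. The tools named in the submitters' processing notes are Salmon, which estimates counts, FastQC, DESeq and DESeq2. Build, annotation and settings: not given in the sources used here. Columns of no sample numbered 0.

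CPM used column sums. Counts were tested with edgeR 4.0.16 in R 4.3.3 (TMM scaling, filterByExpr, glmQLFit with robust dispersions, glmQLFTest), with all groups of a tissue fitted together, p-values adjusted over all tested genes and 0.05 as the threshold. Standard errors are the log2 change divided by the square root of F. The edgeR steps were run on simulated counts for the next-year leaf regimes and the root years only, and the outcome is not given here. Alternatives were the scaling, the filter, DESeq2 1.42.0, the block, the groups fitted, and leaving out each library. Ratios of pooled counts have exact 95% intervals. Correlations are given as descriptions, without p.

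Per the labels, the replicates were separate sowings and the replicate number is the batch, which pairs libraries across groups. Deviations from the group means correlated over 0.1 between libraries of a block in 12 of 15 pairs (range -0.71 to 0.64, the negative ones in first-sampling roots), leaving out next-year roots, where the regimes share only block 3. The planned fit had no block term. No pair of libraries within a group agreed within sampling noise (lowest chi-square per gene 24.6 over 32 pairs).

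The genes, lists and comparisons were chosen with earlier results of these data known. The naming rule allowed 2 identifiers that rose and 2 that fell: both genes kept by the rule, and 2 neighbours chosen after their values were seen. Planned lists by gene name could not be used.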

Additional observations from a re-analysis of the deposited data

How the results depend on the processing

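The number of genes meeting the rule was 5 with a limit of 2 times, 6 with a minimum mean of 1 CPM and 1 with a minimum of 10 CPM, where MD10G1079400 was lost. It was 2 with a limit of 5 times or with no limit on the first-sampling difference, 3 with TMM scaling, and 2 to 3 when a leaf library was left out. The higher level of MD10G1079400 in next-year roots had an adjusted p = 0.0712 with the replicate block, 0.0857 against the first sampling alone, 0.159 in well-watered and 0.110 in drought-regime libraries alone (edgeR), and 0.0105 to 1.00 when a root library was left out. It kept its call with RLE scaling, no filter, DESeq2 and against the third sampling alone (adjusted p = 0.0196 to 0.0396). For MD10G1281800, leaving out a library moved the log2 change between next-year regimes from -0.24 to 0.19 and that between samplings of droughted leaves from -0.22 to 2.22. No other call of a member changed, with the replicate block included. Fits of only the compared groups gave no value for MD10G1079400 where it failed their filter. Root genes called between the years numbered 1518. They were 54 in well-watered and 424 in drought-regime libraries alone, 804 against the third sampling alone and 3562 by DESeq2, and fell most without a next-year root library (540 to 751) or droughted block 3 of the first sampling (985). Genes called between the samplings of well-watered leaves (4876) were 5 with only those groups fitted, 894 and 1450 without blocks 1 and 2 of the first sampling, and 2047 and 2960 without blocks 2 and 3 of the third. In droughted leaves (5349) they were 1838 with only those groups fitted, 3455 and 2304 without blocks 1 and 2 of the first sampling, and 2875 and 3550 without blocks 2 and 3 of the third. Of the genes gained at 1.5 times, 3 rose in root against the first sampling alone and 3 in the drought regime alone, and 4 to 7 when a library was left out. The gene that fell was not called in either regime alone or without any 1 of the next-year root libraries. In a library with no count, levels up to that of 3 counts (0.0440 to 0.115 CPM over the libraries) could not be detected.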
